A study of Mus musculus with 7 samples.

Results

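Genes of mitochondrial oxidative phosphorylation were examined on 7 mouse Clariom S arrays, which measure messenger RNA of annotated genes. The group comprises every probe set whose gene symbol begins with Nduf followed by a, b, c, s or v, with Uqcr, with Cox4 to Cox8 or with Atp5, plus the 4 succinate dehydrogenase genes Sdha, Sdhb, Sdhc and Sdhd. The choice used names only and no measured value. It gave 93 genes, each with 1 probe set, of 19505 named genes on the array. They are called members below.

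Mouse embryonic fibroblasts (MEFs) were given retroviruses for the cardiac transcription factors Gata4 and Tbx5 together with 1 form of the muscle transcription factor Mef2c. GT/M1 carried Mef2c isoform 1, GT/M2 carried isoform 2 and GT/M6 carried isoform 6. GT/M2TAD carried isoform 2 fused to a MyoD transactivation domain, MyoD being a factor that drives skeletal muscle differentiation. A further pair of transduced cultures received small interfering RNA against Ep300, the gene of the acetyltransferase p300 (siEp300), or a control siRNA (siCtrl). Untreated MEFs gave the last array, with no virus and with a time of harvest that is not given. The sample labels disagree on whether the siRNA cultures carried plain isoform 2 or its fusion, so those arrays are called only siEp300 and siCtrl. Transduced cells had their medium replaced 24 h after infection and were collected after 1 week. Each of the 7 groups is 1 array, so no difference below has a replicate check, a test or an error of its own, and no array carried virus without the factors.

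Oxidative phosphorylation is carried out in the inner mitochondrial membrane. Complexes I and II pass electrons from NADH and succinate to ubiquinone, complex III passes them on to cytochrome c, and complex IV (cytochrome c oxidase) passes them to oxygen. Complexes I, III and IV pump protons, and complex V, the ATP synthase, uses the proton gradient to make ATP. Heart muscle is rich in mitochondria, and in adult heart and skeletal muscle several small subunits of cytochrome c oxidase exist as muscle-type isoforms, Cox6a2, Cox7a1 and Cox8b, in place of the widely expressed Cox6a1, Cox7a2 and Cox8a. Cox6b2 is an isoform best known from testis, and its widely expressed counterpart is Cox6b1.

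Promoters of 5 cytochrome c oxidase genes are shown because the results below turn on these isoforms: Cox6b2 differed most from MEF of all members, Cox8b is a muscle-type isoform whose signal was low on every array, and Cox6b1, Cox6a1 and Cox8a are widely expressed counterparts. Each sequence runs 5′ to 3′ on the strand of the gene, all minus, from 250 bases before to 50 bases after the RefSeq start in assembly GRCm38.p6, and is credited to RefSeq. The positions are chr7:4753045-4753344 for Cox6b2, chr7:30626065-30626364 for Cox6b1, chr5:115348909-115349208 for Cox6a1, chr19:7217567-7217866 for Cox8a and chr7:140900397-140900696 for Cox8b. Capitals mark matches, on either strand, to the motifs NRF1 (GCGCANGCG), GABP of the Ets family (CCGGAAG), ERR (AAGGTCA), YY1 (GCCATNTT), T-box (AGGTGTGA), the Sp1 site (GGGCGG), the E-box bound by MyoD (CAGCTG), the site of Gata factors (GATAAG) and MEF2.
Cox6b2: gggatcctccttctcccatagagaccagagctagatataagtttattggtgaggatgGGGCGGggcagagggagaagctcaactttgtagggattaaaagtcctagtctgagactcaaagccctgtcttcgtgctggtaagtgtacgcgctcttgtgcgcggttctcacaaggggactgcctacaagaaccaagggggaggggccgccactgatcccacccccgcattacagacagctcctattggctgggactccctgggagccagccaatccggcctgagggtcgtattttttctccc
Cox6b1: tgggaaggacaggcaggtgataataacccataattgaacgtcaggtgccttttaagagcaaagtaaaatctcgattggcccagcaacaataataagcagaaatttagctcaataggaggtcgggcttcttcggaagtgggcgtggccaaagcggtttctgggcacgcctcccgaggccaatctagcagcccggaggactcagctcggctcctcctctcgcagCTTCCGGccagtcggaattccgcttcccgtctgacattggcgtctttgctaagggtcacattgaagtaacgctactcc
Cox6a1: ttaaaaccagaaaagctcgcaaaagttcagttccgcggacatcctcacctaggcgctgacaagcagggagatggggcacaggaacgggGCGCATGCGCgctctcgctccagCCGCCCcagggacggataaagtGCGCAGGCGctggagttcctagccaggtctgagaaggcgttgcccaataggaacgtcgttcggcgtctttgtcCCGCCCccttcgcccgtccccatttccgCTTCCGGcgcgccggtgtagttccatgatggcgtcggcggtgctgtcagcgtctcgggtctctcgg
Cox8a: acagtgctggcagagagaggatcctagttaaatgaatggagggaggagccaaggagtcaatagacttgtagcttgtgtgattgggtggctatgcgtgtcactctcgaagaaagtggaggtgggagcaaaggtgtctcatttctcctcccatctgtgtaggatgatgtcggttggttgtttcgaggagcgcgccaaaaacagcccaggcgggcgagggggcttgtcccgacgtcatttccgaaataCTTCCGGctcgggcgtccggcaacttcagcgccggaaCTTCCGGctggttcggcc
Cox8b: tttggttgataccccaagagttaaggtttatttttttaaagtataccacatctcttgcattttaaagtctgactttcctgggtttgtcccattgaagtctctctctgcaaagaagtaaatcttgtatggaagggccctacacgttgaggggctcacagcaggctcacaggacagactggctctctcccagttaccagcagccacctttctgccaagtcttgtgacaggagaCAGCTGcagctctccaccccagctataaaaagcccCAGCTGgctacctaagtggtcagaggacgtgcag
The Cox6b2 window held 1 Sp1 match and the Cox6b1 window 1 GABP match. The Cox6a1 window held 3 NRF1 matches, of which a pair overlap, with 1 GABP and 2 Sp1 matches. The Cox8a window held 2 GABP matches, and the Cox8b window 2 E-box matches. A match is a run of letters and not evidence of binding, and these windows were not measured here.

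RefSeq promoter windows were matched for 77 of the 93 members, giving 82 windows, and the same motifs were counted in all 32851 mouse windows of the same length. NRF1 and GABP are factors known to act on many respiratory chain genes. An NRF1 match was present in 28% of member windows and in 6.25% of all windows, and a GABP match in 23.2% and 8.86%. YY1 matched in 23.2% of member windows and 6.05% of all windows, and ERR in 9.76% and 4.72%. Sp1 matched in 43.9% and 35.7%. The MEF2, T-box and GATA motifs, named for the families of the delivered factors, were not more frequent in member windows. MEF2 and T-box had 0 matches in the 82 member windows, against 3.19% and 1.28% of all windows, and GATA had 6.1% against 7.44%. The E-box was present in 7.32% of member windows, against 16.3% of all windows, and of MyoD only the transactivation domain was delivered. Member windows and all windows were not matched in base composition, and whether any of these factors acts on the members was not tested.

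Signals are log2 values, and a difference of 1 is 2-fold. The background of each array is taken as the 95th percentile of its 5222 negative-control probes, which lay between 8.52 and 9.33 on the transduced arrays other than siCtrl, at 8.43 on siCtrl and at 8.81 on MEF. Of the 93 members, 64 lay above this level on all 7 arrays, 20 lay below it on all 7 and 9 on some. The median signal of the members was 11.33 for GT/M1, 11.82 for GT/M2, 11.50 for GT/M6, 11.47 for GT/M2TAD, 11.42 for siEp300 and 10.88 for siCtrl, against 11.07 for MEF. A member is called 2-fold higher or lower when its difference is at least 1 in size and its higher signal reaches that array's median over all named genes.

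The arrays were checked against cell type markers. The summed log2 signal of 6 cardiac muscle markers was 78.4, 76.5, 79.3 and 77.7 on GT/M1, GT/M2, GT/M6, then GT/M2TAD, 70.9 on siEp300 and 67.6 on siCtrl, against 37.4 on MEF. The 5 fibroblast markers summed to 65.2, 64.2, 68.1 and 67.8 on the 4 arrays without siRNA, 74.7 on siEp300 and 75.5 on siCtrl, against 76.1 on MEF. The 4 smooth muscle markers summed to 48.4 to 54.5 without siRNA, 63.2 on siEp300 and 63.7 on siCtrl, against 62.4 on MEF. On the cardiac, fibroblast and smooth muscle lists both siRNA arrays thus stood nearer to MEF than the other transduced arrays did. The sum of the skeletal muscle markers went the other way. It was 31.3 on siEp300 and 30.6 on siCtrl, against 29.1 on MEF and 28.2 to 29.5 on the arrays without siRNA. The list did not rise as a whole. On siEp300 and siCtrl, Acta1 was 2.23 and 2.44 higher than MEF and was the 1 marker called. Only 2 of the 5 were above MEF on each, with list medians of -0.032 and -0.15. Single markers also departed from their list, with Thy1 of the fibroblast list 1.66 higher than MEF on GT/M2TAD. Skeletal muscle markers had 1 of 5 above background on every array, and brown adipocyte and macrophage markers had 0 of 6 and 0 of 3. In bulk RNA, fewer cells of a type and less RNA per cell cannot be told apart, and the part of these marker differences in the results below was not tested.

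Members as a group were somewhat higher on 5 of the 6 transduced arrays than on MEF, and most so on the GT/M2 array. The median difference from MEF was 0.36 for GT/M1, 0.80 for GT/M2, 0.43 for GT/M6, 0.41 for GT/M2TAD, 0.46 for siEp300 and 0.017 for siCtrl. The medians over all named genes were 0.089, 0.072, 0.077, 0.091, 0.12 and 0.012 on the same arrays. Members were higher by any amount in 72, 85, 78, 72, 64 and 47 of 93 cases, where 55.6%, 54.2%, 54.7%, 55.6%, 56.8% and 50.9% of all named genes were higher. The shift was small and shared by many members rather than large in a few, and on siCtrl it was near 0.

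**Figure D1:**
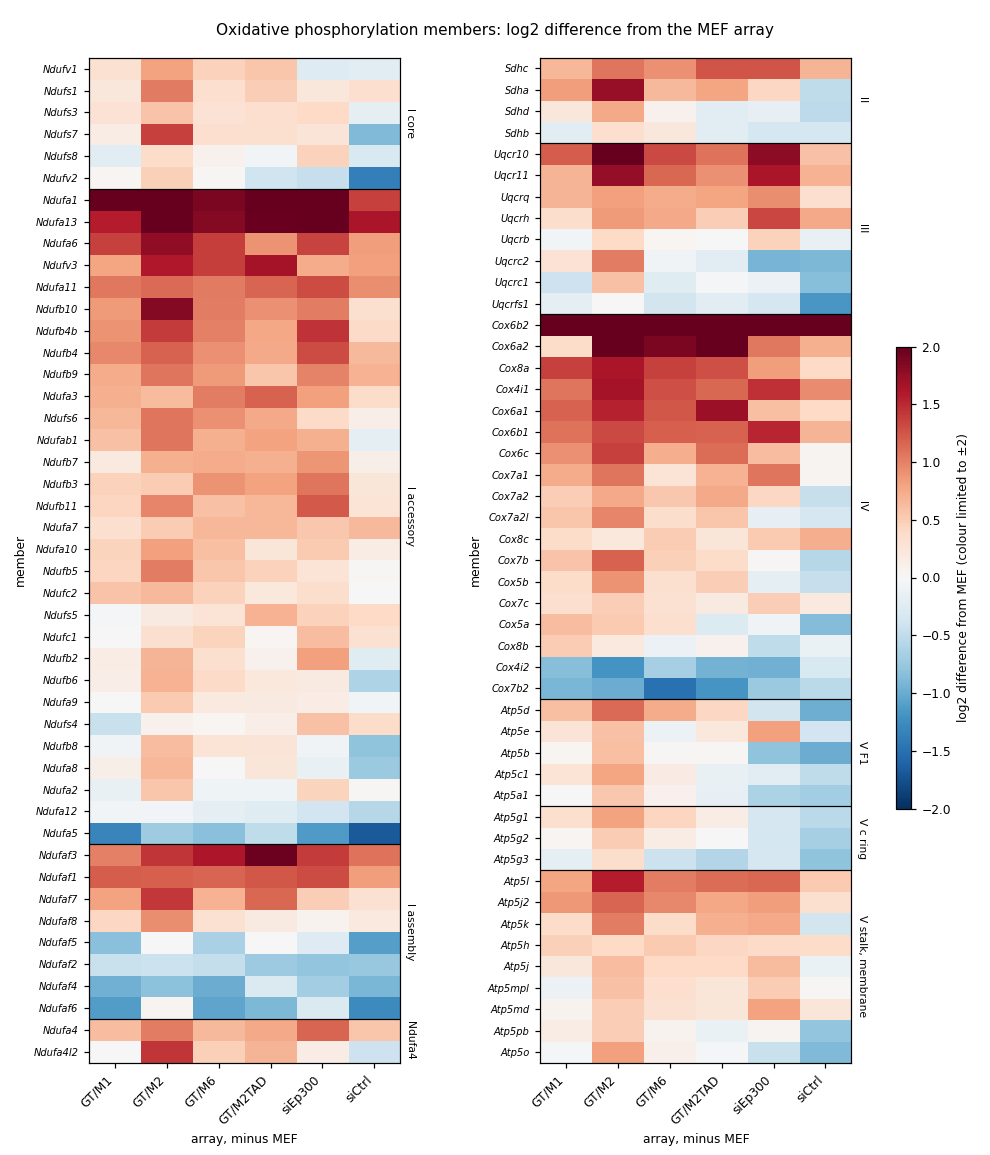
Log2 difference of each of the 93 members (rows) from the MEF array on the 6 transduced arrays (columns), grouped by complex and ordered within a group by the median of the 6 differences. Red is higher and blue lower than MEF, with the colour limited to 2 in size, which Cox6b2 exceeds on all 6 arrays. The GT/M2 column is the reddest and the siCtrl column the bluest.

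The 2-fold calls were most frequent on GT/M2. On GT/M2, 36 members (38.7%) were 2-fold higher than on MEF and 0 were lower, where 13.6% and 8.34% of all named genes were. On GT/M6, 19 were higher and 1 lower, against 13% and 8.79% of all genes. On GT/M2TAD, 18 were higher and 0 lower, against 14% and 9.5%. The siEp300 array had 22 higher and 1 lower, against 13.4% and 9.29%. The GT/M1 array had 12 higher (12.9%), near the 12.5% of all genes, and 2 lower, against 9.52%. The siCtrl array had 4 higher and 5 lower, against 10.9% and 10.9%. All 6 comparisons share the MEF array.

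The background share depends on how strongly genes are expressed, since members lie mostly above background and named genes mostly below it. In a class of 5213 genes whose mean signal over the 7 arrays reached the background level, defined after the data were seen, 67 were members. Members of the class were 2-fold higher than MEF in 40.3% of cases on GT/M2, against 26% of all genes in the class, and 2-fold lower in 0%, against 13.1%. For GT/M1, GT/M6, GT/M2TAD, siEp300 and siCtrl the members' higher shares were 14.9%, 19.4%, 19.4%, 20.9% and 4.48%, against 24.6%, 25.9%, 28.3%, 27.1% and 23.2% of all genes in the class. Their lower shares were 0% on the first 4 of these and 2.99% on siCtrl, against 15.7%, 14.4%, 15.6%, 15% and 18.1%. The members' medians in the class were 0.35, 0.80, 0.43, 0.40, 0.42 and -0.0043 on GT/M1, GT/M2, GT/M6, GT/M2TAD, siEp300 and siCtrl, where all genes had 0.15, 0.23, 0.19, 0.23, 0.23 and 0.057. Because 6 of the 7 arrays behind the mean are transduced, genes that are higher there enter the class more easily than genes that are lower, and the class is not matched to the members in signal. Its shares are therefore given as a description.

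Scaling bears on every small difference. Each array's median over named genes exceeded that of MEF by 0.31 for GT/M1, 0.32 for GT/M2, 0.33 for GT/M6, 0.26 for GT/M2TAD, 0.24 for siEp300 and 0.071 for siCtrl. Subtracting it left members' medians of 0.054, 0.48, 0.099, 0.15, 0.23 and -0.054, the last with its sign turned. The counts of members 2-fold higher then became 5 for GT/M1, 20 for GT/M2, 8 for GT/M6, 9 for GT/M2TAD, 15 for siEp300 and 4 for siCtrl, where 9.31%, 10%, 9.5%, 11.1%, 10.8% and 10.2% of all named genes were called after the same centring. Calls that exceed 1 by less than the amount subtracted do not remain under it. Where a median is said below to turn after centring, this subtraction is meant, and the other scalings did not always turn it. On GT/M2 the members were thus higher than on MEF under every scaling tried, by a median between 0.48 and 0.80.

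Across the 6 transduced arrays, 42 members were above MEF on all 6, where 28% of all named genes were, and 7 were below it on all 6, where 21.2% were. The other 44 went both ways. At least 1 array had a 2-fold higher call for 40 of the 93 members, against 21.3% of all named genes, and 48 of the 93 had no call against MEF in either direction, against 63.9%. The 4 members 2-fold higher on all 6 arrays, where 6.28% of all named genes were, were Cox6b2, Ndufa1, Ndufa13 and Ndufaf3. Cox4i1, Cox6b1, Ndufa11, Ndufaf1 and Uqcr10 were called on 5 arrays, all but siCtrl, and Atp5l, Cox6a1, Cox6a2, Cox8a and Ndufa6 on 4. Ndufaf3, Ndufaf1 and Cox6a2 lay below background on every array, so the size of their differences rests on background.

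Complex I oxidises NADH. Its core subunits, which carry the flavin and the iron-sulfur clusters, were represented by 6 genes. Their median difference from MEF was 0.18 for GT/M1, 0.68 for GT/M2, 0.31 for GT/M6, 0.32 for GT/M2TAD, 0.24 for siEp300 and -0.26 for siCtrl. On GT/M2 all 6 were higher, and after centring on array medians the group stayed higher there (0.36), while the GT/M1 and GT/M6 medians became -0.12 and -0.016. On GT/M1 and GT/M6 they were 0.076 and 0.18 under quantile normalization, and 0.021 and 0.12 under centring within 20 bins of signal. Ndufs7, the subunit that holds the iron-sulfur cluster next to the ubiquinone site, had signals of 9.96 for GT/M1, 11.18 for GT/M2, 10.15 for GT/M6, 10.13 for GT/M2TAD, 10.07 for siEp300 and 8.93 for siCtrl, against 9.82 for MEF. It was 1.36 higher on GT/M2 and stood out there, and siCtrl was the lowest of the 7 arrays. Ndufs1, the largest iron-sulfur subunit, was 1.04 higher on GT/M2, where its signal was 10.94 against 9.90 on MEF. Ndufv1, the NADH-binding flavoprotein, had the highest median difference from MEF over the 6 arrays among the core subunits, 0.38, with signals of 13.12 on GT/M2 and 12.11 on siCtrl, against 12.32 on MEF. Ndufv2, another iron-sulfur subunit, had the lowest median difference and was 2-fold lower on siCtrl, with 10.75 there against 12.12 on MEF.

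The 30 accessory subunits of complex I, which surround the core and are needed for its assembly and stability, had medians of 0.43, 0.70, 0.64, 0.66, 0.66 and 0.26 on GT/M1, GT/M2, GT/M6, GT/M2TAD, siEp300 and siCtrl. They stayed above 0 after centring, at 0.13, 0.38, 0.31, 0.41, 0.43 and 0.18. Of the 30, 12 were 2-fold higher than MEF on GT/M2, 9 on siEp300, 8 on GT/M6, 5 on GT/M2TAD, 4 on GT/M1 and 2 on siCtrl. The shares of all named genes in that order were 13.6%, 13.4%, 13%, 14%, 12.5% and 10.9%. Their median was above 0 on all 6 arrays under all 4 scalings.

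Ndufa1, a small membrane-arm subunit required for assembly, had 10.48, 10.47, 10.35 and 10.51 on GT/M1, GT/M2, GT/M6, then GT/M2TAD, 10.54 on siEp300 and 9.84 on siCtrl, against 8.47 on MEF. All 6 transduced arrays stood above MEF, by 1.37 to 2.08, and 5 of them lay between 10.35 and 10.54. The MEF signal was below background, so these differences rest in part on it. Ndufa13, also called GRIM-19, had 12.70, 13.15, 12.97 and 13.12 on the arrays without siRNA in the same order, 13.37 on siEp300 and 12.77 on siCtrl, against 11.14 on MEF. It too was above MEF on every transduced array, by 1.57 to 2.24, with siEp300 the highest. Ndufa6, a subunit that binds the mitochondrial acyl carrier protein, had 10.19, 10.59, 10.20 and 9.72, then 10.17 on siEp300 and 9.65 on siCtrl, against 8.82 on MEF. Ndufa11 of the membrane arm had 11.31 to 11.68 on the transduced arrays, against 10.38 on MEF.

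Other accessory subunits reached the 2-fold level on 1, 2 or 3 arrays. Ndufb4 and Ndufb4b did so on GT/M2, by 1.18 and 1.4, and on siEp300, by 1.30 and 1.45, with Ndufb4b also 1.02 higher on GT/M6. These genes are near-identical copies, so their probe sets may share signal. Ndufa3 was 1.02 higher on GT/M6 and 1.18 higher on GT/M2TAD. Ndufab1, the mitochondrial acyl carrier protein, was 1.07 higher on GT/M2, as were Ndufb9 at 1.07, Ndufs6 at 1.07 and Ndufb5 at 1.02. Ndufb11 was 1.23 higher on siEp300, with the MEF signal below background. Ndufb10, Ndufv3 and Ndufb3 were also called, with signals below background in those comparisons, the highest being 1.84 for Ndufb10 on GT/M2, 1.66 for Ndufv3 on GT/M2TAD and 1.08 for Ndufb3 on siEp300.

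The exception among accessory subunits was Ndufa5, a subunit of the matrix arm. Its signal was 8.0, 8.61, 8.48 and 8.82 on GT/M1, GT/M2, GT/M6, then GT/M2TAD, 8.18 on siEp300 and 7.64 on siCtrl, against 9.33 on MEF. It was below MEF on all 6 arrays, 2-fold lower on GT/M1, siEp300 and siCtrl, and below background on each transduced array. Ndufa12 was also below MEF on all 6, by 0.06 to 0.58.

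Assembly factors of complex I, which help to build the complex and are not part of it, split in both directions. The medians of the 8 genes were -0.012, 0.49, -0.091, 0.098, -0.097 and -0.29 on GT/M1, GT/M2, GT/M6, GT/M2TAD, siEp300 and siCtrl. After centring, GT/M2 stayed at 0.17 and GT/M2TAD turned to -0.16. Ndufaf3 had 6.56, 6.98, 7.17, 7.51, 6.95 and 6.64 on the 6 arrays, against 5.56 on MEF, and Ndufaf1, part of the intermediate complex that builds the membrane arm, was 1.16 to 1.31 higher on the 5 arrays other than siCtrl. Ndufaf4, which acts together with Ndufaf3, went the other way, with 10.87, 11.02, 10.84, 11.54, 11.14 and 10.92, against 11.83 on MEF. Ndufaf4 was the best measured of these genes, above background on all 7 arrays. Ndufaf7, a methyltransferase that acts on complex I, was 1.42 higher on GT/M2 and 1.15 higher on GT/M2TAD, in the second case with a signal below background. Ndufaf6 was 2-fold lower on GT/M1, GT/M6 and siCtrl, by -1.11, -1.05 and -1.27, and Ndufaf5 on siCtrl, by -1.1, both with signals below background. Ndufaf2 was below MEF on all 6 by 0.43 to 0.80.

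Complex II, succinate dehydrogenase, links the citric acid cycle to the respiratory chain. The flavoprotein Sdha had 10.46 for GT/M1, 11.36 for GT/M2, 10.27 for GT/M6, 10.40 for GT/M2TAD, 10.02 for siEp300 and 9.10 for siCtrl, against 9.62 for MEF. GT/M2 was the highest array, 1.74 above MEF, and siCtrl was below MEF. The membrane anchor Sdhc had 9.72, 10.13, 9.97, 10.32, 10.32 and 9.74, against 9.05 on MEF, and was 2-fold higher on GT/M2, GT/M2TAD and siEp300. It was the only one of the 4 subunits above MEF on all 6 arrays. The iron-sulfur subunit Sdhb had 11.33, 11.89, 11.76, 11.34, 11.19 and 11.19, against 11.54 on MEF, and the anchor Sdhd had 11.20, 11.73, 11.05, 10.75, 10.81 and 10.44, against 10.97 on MEF. Both were highest on GT/M2 and neither reached 2-fold. The medians of the 4 were 0.45, 0.92, 0.43, 0.29, 0.12 and -0.43, and the siEp300 value turned to -0.11 after centring.

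Complex III, the cytochrome bc1 complex, had medians over 8 genes of 0.32, 0.84, 0.39, 0.25, 0.70 and 0.09 on the same arrays, of which GT/M2TAD turned to -0.014 after centring. Its members did not move as one. Uqcr10, a small membrane subunit, had 10.13, 10.98, 10.24, 10.01, 10.71 and 9.50, against 8.91 on MEF, so that GT/M2 and siEp300 were the highest arrays and all 6 lay above MEF. Uqcr11, another small subunit, was 1.76, 1.15 and 1.63 higher on GT/M2, GT/M6 and siEp300, with signals below background, and the hinge protein Uqcrh was 1.33 higher on siEp300, at 14.48 against 13.15 on MEF. The core protein Uqcrc2 had 9.44, 10.19, 9.09, 8.92, 8.23 and 8.25, against 9.16 on MEF, which placed GT/M2 1.03 above MEF and both siRNA arrays below it. Uqcrfs1, the Rieske iron-sulfur protein that takes electrons from ubiquinol, had 11.34, 11.51, 11.16, 11.30, 11.17 and 10.36, against 11.52 on MEF. It was below MEF on all 6 arrays, though by only 0.015 on GT/M2, and 2-fold lower on siCtrl. The small subunit Uqcrb stayed near MEF, with 16.46, 16.90, 16.55, 16.51, 16.97 and 16.36, against 16.50 on MEF, and the core protein Uqcrc1 was above MEF on GT/M2 only, by 0.59.

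Complex IV had medians over 18 genes of 0.56, 1.02, 0.49, 0.62, 0.50 and 0.06, the highest of complexes I to V on GT/M2, and the siCtrl median turned to -0.012 after centring. Of the 18 genes, 9 were 2-fold higher than MEF on GT/M2, 7 on GT/M2TAD, 6 on GT/M6, 5 on GT/M1, 5 on siEp300 and 1 on siCtrl. The shares of all named genes in that order were 13.6%, 14%, 13%, 12.5%, 13.4% and 10.9%. Cox4i1, the widely expressed form of the largest nuclear-encoded subunit, had 12.82, 13.40, 13.03, 12.88, 13.20 and 12.69, against 11.74 on MEF, with every transduced array above MEF by 0.95 to 1.66. Its other isoform Cox4i2, known from lung and from low oxygen, stayed below background with 3.61 to 4.49, against 4.80 on MEF. Cox6c had 15.54 to 16.19 on the 4 arrays without siRNA, 15.43 on siEp300 and 14.88 on siCtrl, against 14.82 on MEF, and was 2-fold higher on GT/M2 and GT/M2TAD, by 1.37 and 1.11. Cox7b was 1.18 higher on GT/M2, at 14.28 against 13.10 on MEF. The testis-type Cox7b2 stayed below background and below MEF on all 6 arrays. Ndufa4, which is now regarded as part of complex IV, had 14.28, 14.69, 14.31, 14.41, 14.83 and 14.22, against 13.66 on MEF, and was 2-fold higher on GT/M2 and siEp300. Its relative Ndufa4l2, known from low oxygen, lay between 2.35 and 4.19 on all 7 arrays, below background.

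Complex V differed by part of the enzyme. The 5 genes of the catalytic F1 head had medians of 0.26, 0.60, 0.088, 0.021, -0.36 and -0.69, and the 3 genes of the proton-driven c ring 0.044, 0.51, 0.15, 0.012, -0.34 and -0.66. In both, the siEp300 and siCtrl medians were negative under all 4 scalings and the GT/M2 median was positive. The GT/M1, GT/M6 and GT/M2TAD medians turned negative after centring on array medians. Under quantile normalization and centring within 20 bins of signal, those of GT/M1 and GT/M6 stayed above 0 and those of GT/M2TAD were negative. The catalytic beta subunit Atp5b had 17.34, 17.91, 17.33, 17.32, 16.50 and 16.32, against 17.30 on MEF. GT/M1, GT/M6 and GT/M2TAD lay close to MEF, GT/M2 stood 0.60 above it, and both siRNA arrays lay below it. Atp5a1, the alpha subunit, had 16.62, 17.15, 16.70, 16.45, 15.99 and 15.92, against 16.62 on MEF, and the c-ring gene Atp5g1 had 14.13, 14.61, 14.24, 13.96, 13.48 and 13.28, against 13.81 on MEF. In both genes GT/M2 was the highest array and siCtrl the lowest. The epsilon subunit Atp5e was the 1 F1 gene above MEF on siEp300, by 0.82, with the MEF signal below background. The delta subunit Atp5d was 1.14 higher than MEF on GT/M2 and differed by -0.97 on siCtrl.

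The 9 genes of the stalk and the membrane part of complex V had medians of 0.23, 0.61, 0.37, 0.40, 0.64 and 0.03, of which the GT/M1 and siCtrl values turned to -0.076 and -0.044 after centring. Atp5l, subunit g, which helps synthase dimers to form, had 11.14, 11.92, 11.37, 11.47, 11.50 and 10.88, against 10.35 on MEF. All 6 lay above MEF, and 4 were 2-fold higher. Atp5j2, subunit f, was 1.17 higher on GT/M2, and Atp5k, subunit e, 1.02 higher on GT/M2 with a signal below background. Atp5o, the protein that joins F1 to the stalk, had 13.63 on GT/M2, 12.37 on siEp300 and 11.93 on siCtrl, against 12.81 on MEF, with GT/M2 above and both siRNA arrays below MEF.

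**Figure D2:**
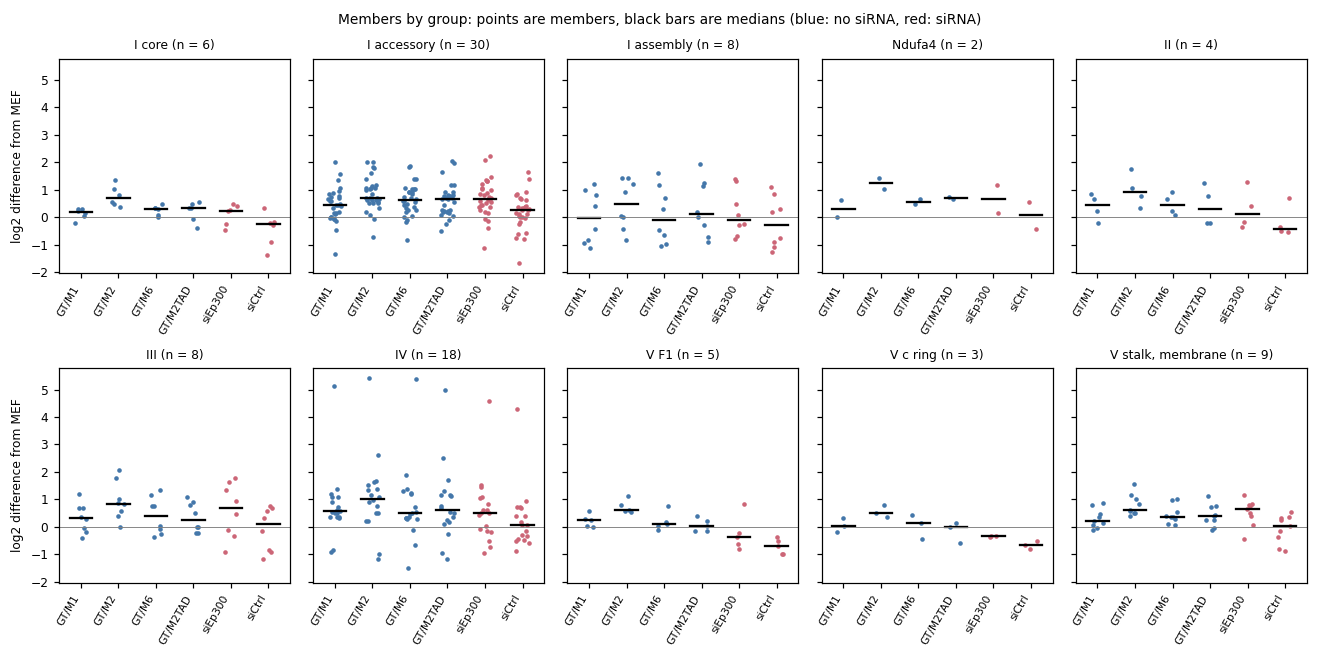
Log2 difference from the MEF array (vertical axis) of the members of each group on the 6 transduced arrays, with 1 point per member and a black bar at the median. Blue points are arrays without siRNA and red points arrays with siRNA. The F1 and c-ring medians are below 0 on both siRNA arrays, the medians of the accessory subunits of complex I are above 0 on all 6, and Cox6b2 is the single point above 4 in complex IV.

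The muscle-type isoforms of cytochrome c oxidase did not reach background on any array. Cox6a2, the heart and skeletal muscle form of subunit 6a, had 5.47 for GT/M1, 7.71 for GT/M2, 6.99 for GT/M6, 7.62 for GT/M2TAD, 6.15 for siEp300 and 5.81 for siCtrl, against 5.10 for MEF. It was 2.61, 1.89, 2.52 and 1.05 higher on GT/M2, GT/M6, GT/M2TAD and siEp300, and only 0.37 higher on GT/M1. The siEp300 difference fell short of 2-fold under each of the other 3 scalings, at 0.82 to 0.88. Cox7a1 had 5.52, 5.85, 5.06, 5.48, 5.85 and 4.84, against 4.78 on MEF, and was 1.07 higher on GT/M2 and on siEp300, which became 0.75 to 0.93 under the other 3 scalings. Its differences on GT/M6 and siCtrl, 0.28 and 0.057, turned negative after centring. Cox8b had 3.68, 3.37, 3.04, 3.26, 2.66 and 3.02, against 3.16 on MEF, and lay on both sides of MEF by no more than 0.51. Of the 3, Cox6a2 alone differed from MEF by more than 2-fold under every scaling on any array, namely GT/M2, GT/M6 and GT/M2TAD, and all of its signals were under the background level.

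The widely expressed counterparts were well above background and were themselves higher on most transduced arrays. Cox6a1 had 16.03, 16.38, 16.09, 16.56, 15.45 and 15.24, against 14.85 on MEF, with the 4 arrays without siRNA 1.19 to 1.71 higher. After centring on array medians GT/M1 and GT/M6 were below 2-fold, at 0.88 and 0.91. Cox8a had 15.98, 16.24, 15.98, 15.91, 15.45 and 15.02, against 14.61 on MEF, with the same 4 arrays 1.30 to 1.63 higher. Cox7a2 had 11.55, 11.82, 11.60, 11.82, 11.48 and 10.61, against 11.07 on MEF, and siCtrl was the one array below MEF. Cox6a1 and Cox8a thus differed from MEF in the same direction as Cox6a2 on every array, and no array had a muscle-type isoform above background.

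Cox6b2 differed from MEF more than any other member. Its signal was 10.71 for GT/M1, 11.02 for GT/M2, 11.0 for GT/M6, 10.59 for GT/M2TAD, 10.16 for siEp300 and 9.91 for siCtrl, against 5.6 for MEF. All 6 transduced arrays lay above their background and MEF lay below its own, so the differences of 5.11, 5.42, 5.40, 5.0, 4.57 and 4.31 rest in part on background. Among all 19505 genes they ranked between 101 and 136 from the highest. Its counterpart Cox6b1 had 13.57, 13.80, 13.68, 13.65, 14.01 and 13.16, against 12.48 on MEF, and was 0.69 to 1.53 higher. The genes beside Cox6b2 on chromosome 7 showed no difference of that size. Kmt5c had 8.73 to 9.47 on the 4 arrays without siRNA, 8.03 on siEp300 and 8.10 on siCtrl, against 8.13 on MEF, and was 1.11 to 1.33 higher on GT/M2, GT/M6 and GT/M2TAD. Fam71e2, Tmem150b and Il11 lay below background on every array. The neighbours were taken by position, and not by their values.

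**Figure D3:**
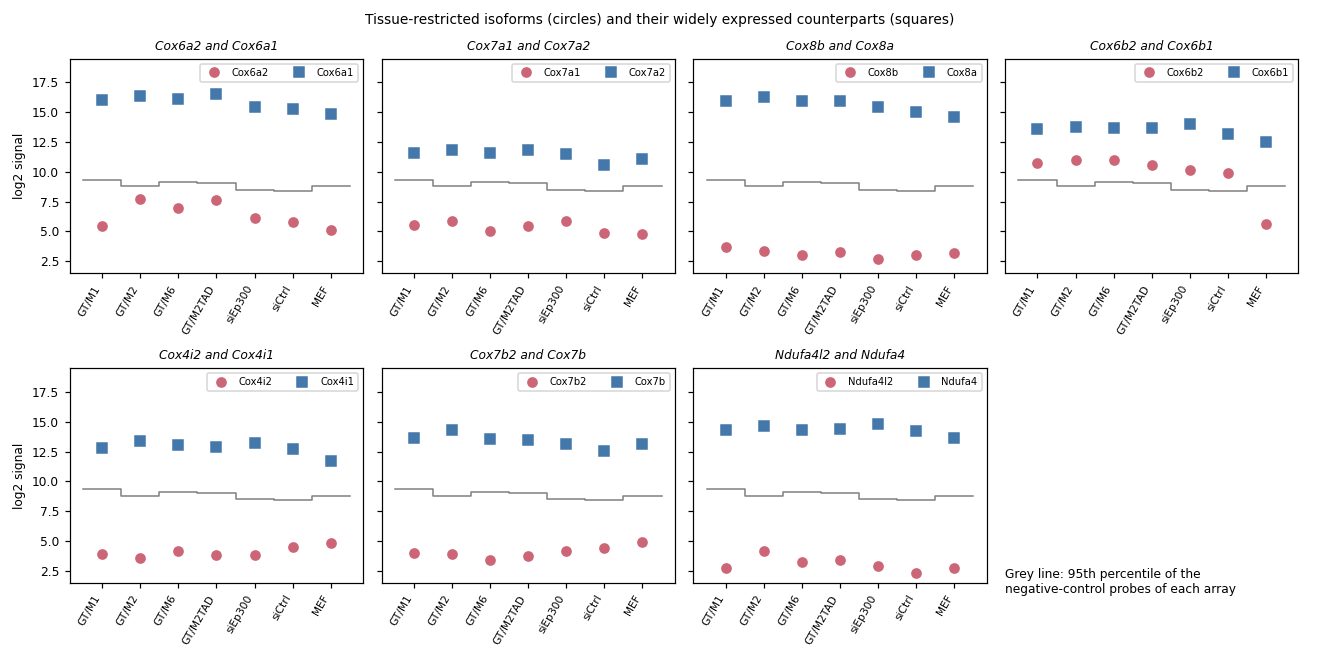
Log2 signal (vertical axis) of 7 tissue-restricted isoforms (red circles) and their widely expressed counterparts (blue squares) on the 6 transduced arrays and MEF, with the 95th percentile of each array's negative-control probes as a grey line. Cox6b2 is the one circle series above the line, on all 6 transduced arrays and not on MEF, while Cox6a2, Cox7a1 and Cox8b stay below it throughout. Signals of different probe sets are not comparable as levels.

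The forms of Mef2c were then set against each other. GT/M2 stood highest for 70 of 93 members among the 4 arrays without siRNA, where 27.9% of all named genes had their highest signal on GT/M2. GT/M2TAD was highest for 13, GT/M6 for 7 and GT/M1 for 3, for which the shares of all named genes are not given. Between GT/M2 and GT/M1 the members' median difference was 0.46, against 0.022 over all genes, and 84 of 93 members were higher, against 52% of all genes. Only 4 were 2-fold higher and 0 lower, against 1.9% and 1.39% of all genes. Those 4 were Cox6a2 at 2.24, Ndufs7 at 1.22, Ndufaf6 at 1.17 and Uqcr11 at 1.08, of which Ndufs7 alone lay above background.

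Between GT/M6 and GT/M1 the members hardly differed. Their median difference was 0.11, against 0.0073 over all genes, with 63 of 93 higher, against 51% of all genes, and Cox6a2 at 1.51 was the 1 member called higher, with 0 lower (0.646% and 0.292% of all genes). Between GT/M6 and GT/M2 the median was -0.34, against -0.018 over all genes, with 10 members higher, against 48.2% of all genes. Uqcrc2, Sdha, Ndufs7 and Ndufaf6 were 2-fold lower on GT/M6, by -1.1, -1.09, -1.03 and -1.11, and 0 members were higher (1.71% and 1.85% of all genes were lower and higher). Ndufaf6 lay below background on both arrays, and Uqcrc2 lay below it on GT/M6.

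Members had mostly lower signals on GT/M2TAD, with the MyoD transactivation domain joined to isoform 2, than on GT/M2. The median difference between GT/M2TAD and GT/M2 was -0.37, against 0.0020 over all genes, and 19 of 93 members were higher, against 50.2% of all genes. Ndufs7 and Uqcrc2 were 2-fold lower, by -1.05 and -1.26, and 0 were higher (3.33% and 2.96% of all genes were lower and higher). Uqcrc2 lay below background on GT/M2TAD. All core subunits of complex I, all 8 complex III genes and all 8 genes of F1 and the c ring were lower on GT/M2TAD than on GT/M2, with medians of -0.48, -0.50 and -0.68. Against GT/M1 the same GT/M2TAD array had a members' median of 0.059, and against GT/M6 one of -0.025. An effect of the fused domain and a property of the single GT/M2 array cannot be told apart. GT/M2 enters 3 of these comparisons, which are therefore not independent.

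**Figure D4:**
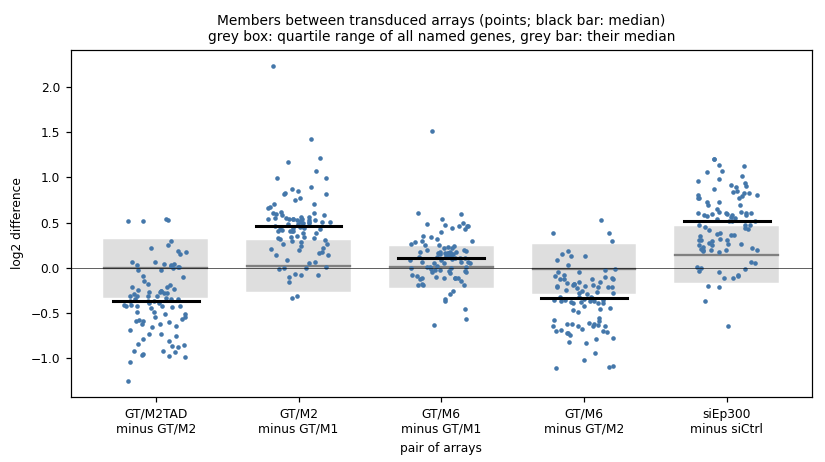
Log2 difference of each member (blue points) between pairs of transduced arrays, with the members' median as a black bar, the range between the quartiles of all named genes as a grey box and their median as a grey bar. Members lie mostly below 0 where GT/M2 is subtracted and mostly above 0 where GT/M2 or siEp300 comes first. Between GT/M6 and GT/M1 they lie around 0.11.

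Ep300 siRNA was compared with control siRNA to ask what part p300 has in the expression of these genes. Ep300 itself had 9.47 on siEp300 and 9.90 on siCtrl, and 9.87 to 10.22 on the other 5 arrays, and where its probes lie relative to the siRNA target is not known. Members were higher on siEp300 by a median of 0.51, against 0.14 over all genes, with 81 of 93 higher, against 62.4% of all genes. The 2-fold calls were 7 higher and 0 lower, against 1.93% and 0.39% of all genes. Uqcr10 had 10.71 on siEp300 and 9.50 on siCtrl, and Ndufs7 had 10.07 on siEp300 and 8.93 on siCtrl. Ndufb4b had 13.94 on siEp300 and 12.86 on siCtrl, and Atp5e, the epsilon subunit of F1, had 8.97 on siEp300 and 7.77 on siCtrl. Ndufb2, at 1.06, was also called, as were Cox7a1 and Atp5k, whose signals were below background. Atp5e and Ndufb2 lay above background on siEp300 but below it on siCtrl. After centring on array medians, quantile normalization and centring within 20 bins of signal the count of 7 became 2, 1 and 0, and the median 0.35, 0.34 and 0.33. The shares of all named genes called under these scalings are not given, so the fall in the count cannot be set against them.

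The direction of this difference changed with the array used as comparator. For 66 of 93 members siCtrl had the lowest signal of the 6 transduced arrays, as it had for 31.9% of all named genes. Against GT/M2TAD the siEp300 array had a members' median of -0.020, and against GT/M2 one of -0.34. Neither of those arrays received siRNA, and the labels do not settle which of them carried the same Mef2c form. A difference from control siRNA and a property of the single siCtrl array cannot be told apart.

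Genes of neighbouring pathways were set beside the members. A list of 38 genes for cytochrome c, cytochrome c1 and assembly factors outside the name rule had medians from MEF of 0.19, 0.46, 0.16, 0.27, 0.28 and -0.024 on GT/M1, GT/M2, GT/M6, GT/M2TAD, siEp300 and siCtrl, of which GT/M1 and GT/M6 turned negative after centring. Of the 38, 7, 8, 7, 9, 7 and 5 were 2-fold higher and 2, 1, 2, 4, 4 and 5 lower. Of all named genes, 12.5%, 13.6%, 13%, 14%, 13.4% and 10.9% were 2-fold higher on the same arrays. The shares 2-fold lower were 9.52%, 8.34%, 8.79%, 9.5%, 9.29% and 10.9%. These shares are also the background for the counts of the lists below, some of which lie near them. Cox17, a copper chaperone for cytochrome c oxidase, had 13.17, 13.22, 12.55, 13.04, 13.14 and 12.55, against 10.98 on MEF. Cox20, a chaperone for a mitochondrially encoded oxidase subunit, had 11.53, 11.63, 11.68, 11.95, 12.52 and 11.96, against 9.86 on MEF, and Tmem126b, a partner of Ndufaf1, was 1.48 to 2.87 higher, with the MEF signal below background. These 3 were 2-fold higher on all 6 arrays, and Uqcc3 of complex III assembly on 4.

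The citric acid cycle list of 16 genes had medians of -0.0060, 0.63, 0.062, 0.11, -0.22 and -0.67, with GT/M2 again highest and siCtrl lowest, and GT/M6 and GT/M2TAD turned negative after centring. Its 2-fold higher counts were 0, 6, 0, 1, 0 and 0, and its lower counts 0, 0, 0, 0, 1 and 4. The 76 nuclear-encoded mitochondrial ribosomal proteins, which make the subunits encoded by mitochondrial DNA, mostly had negative medians. They were -0.40, 0.056, -0.36, -0.41, -0.32 and -0.69, with 17, 2, 10, 17, 11 and 27 of the 76 2-fold lower and 2, 4, 0, 2, 2 and 0 higher. Mrps10 had 8.86, 9.03, 8.84, 8.98, 9.09 and 8.55, against 10.16 on MEF, and Mrps5 had 8.65, 9.17, 8.37, 8.39, 8.09 and 7.96, against 9.73 on MEF. The extreme arrays were nonetheless shared, with GT/M2 highest and siCtrl lowest in the members, the citric acid cycle and the ribosomal proteins. The arrays between them differed in order. The GT/M2 value of the ribosomal proteins turned to -0.26 after centring.

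Regulators of mitochondrial biogenesis, 17 genes, had medians of -0.095, 0.024, -0.54, -0.27, -0.29 and -0.19, of which GT/M2 turned negative after centring. Counts of 2-fold higher were 3, 3, 2, 2, 0 and 1, and of lower 2, 2, 2, 2, 2 and 4. The coactivator Ppargc1a had 7.65, 7.67, 7.65, 7.79, 5.42 and 5.92, against 4.98 on MEF, and the nuclear receptor Esrrg had 6.05, 8.13, 7.26, 7.66, 5.49 and 5.55, against 4.31 on MEF. Both stood below background on all 7 arrays. Nrf1, the factor whose motif was counted above, had 8.99, 9.03, 8.64, 8.87, 8.41 and 8.22, against 10.10 on MEF, and was 2-fold lower on all 6. GT/M2 was the highest of the 6 and the one transduced array on which it lay above background, and siCtrl was the lowest. Tfam, which packages mitochondrial DNA and was named after its values were seen, was 2-fold lower on GT/M1, GT/M2 and siCtrl, by -1.18, -1.09 and -2.12, with signals below background on all 7 arrays.

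Carriers of ATP and phosphate, porins and uncoupling proteins, 9 genes, had medians of 0.26, 0.098, 0.32, 0.22, -0.066 and -0.037, the first 4 turning negative after centring. Slc25a5, an ADP/ATP carrier of dividing cells, had 15.90, 16.38, 15.79, 15.55, 15.13 and 14.85, against 16.83 on MEF. It was below MEF on all 6 arrays and 2-fold lower on 4. Glycolysis, 17 genes, had medians of 0.23, 0.57, 0.83, 0.85, 0.40 and 0.12, with 7, 7, 8, 8, 8 and 6 genes 2-fold higher and 3, 1, 2, 2, 1 and 2 lower, and GT/M1 turned negative after centring. The muscle enolase Eno3 had 11.55, 13.11, 12.09, 13.46, 12.94 and 12.41, against 6.39 on MEF, and the heart-type lactate dehydrogenase Ldhb had 11.39, 11.70, 10.79, 10.80, 9.10 and 8.94, against 6.99 on MEF. Both lay above background on all 6 transduced arrays and below it on MEF. Pgk1 had the lowest difference of the list on GT/M1, GT/M2, GT/M6, GT/M2TAD and siEp300, at -2.16, -1.73, -2.15, -2.16 and -1.51. On siCtrl the lowest was Ldha, at -1.64.

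**Figure D5:**
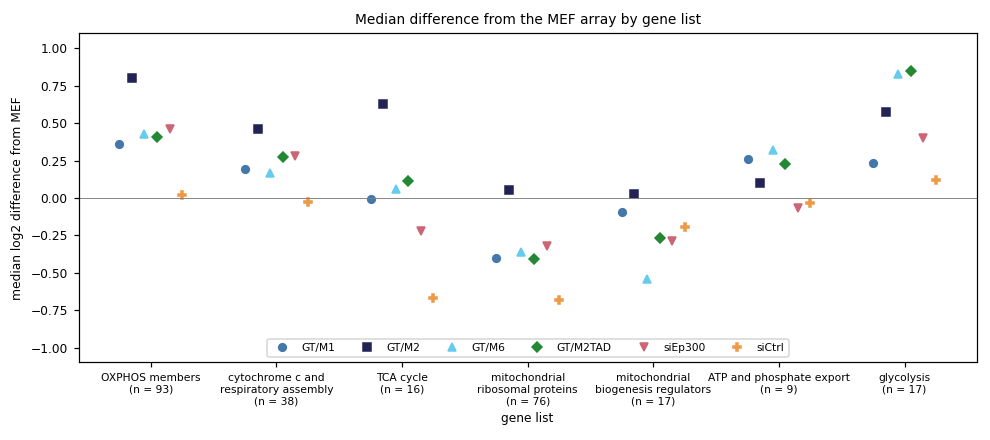
Median log2 difference from the MEF array (vertical axis) of the members and of 6 other gene lists on the 6 transduced arrays, each array with its own symbol. GT/M2 is the highest array for the oxidative phosphorylation members, the assembly list, the citric acid (TCA) cycle and the mitochondrial ribosomal proteins, and siCtrl the lowest. Glycolysis is highest on GT/M6 and GT/M2TAD.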

How the data were processed

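Labelled complementary DNA from 100 ng of total RNA of integrity number above 7 was hybridised to 7 Clariom S arrays, per the labels' protocols. The deposited values are log2 signals made by the authors with Affymetrix Expression Console 1.4 and the SST-RMA method, per the submitters' processing notes and the series text. Such normalization is meant to reduce shifts common to an array, though the medians over named genes still differed between arrays as given above. Values near background understate differences. Probe sets were named from the platform annotation, and for the 55 genes with several sets the one with the highest mean was used. All values are differences of single arrays computed with Python 3.11.15, numpy 2.4.6 and pandas 2.3.3, and a 2-fold call uses the floor given above. With 1 array per group the number of arrays limits the precision. The code that makes the calls was tested on simulated data, which gives no measure of replicate error. Named genes were all members 2-fold apart, the isoform pairs, complex II, the extremes of each complex and at most 4 genes of each other list. The rule for the members used names only and no measured value. It and the other lists were set with earlier results of these data known.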

Additional observations from a re-analysis of the deposited data

How the results depend on the processing

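With 1 array per group no replicate could be left out, and no paired analysis was possible because each group has 1 array. Alternatives were centring on array medians, quantile normalization, centring in 20 bins of signal, the mean over members, 77 members without assembly factors and restricted isoforms, 67 members above the negative controls (added after seeing the data), other floors, a 1.5-fold threshold and other comparators. Against MEF, median centring gave members' medians of 0.054 for GT/M1, 0.48 for GT/M2, 0.099 for GT/M6, 0.15 for GT/M2TAD, 0.23 for siEp300 and -0.054 for siCtrl, and counts of 2-fold higher members of 5, 20, 8 and 9 on the first 4. Quantile normalization gave 0.24 on GT/M1 and 0.30 on siEp300. Level-dependent centring gave 0.22 on GT/M6, 0.23 on GT/M2TAD, 0.24 on siEp300 and -0.10 on siCtrl, with counts of 12 for GT/M6 and 10 for GT/M2TAD. The siCtrl median was -0.013 as a mean and -0.0043 over members above the negative controls, and its count was 2 without assembly factors and restricted isoforms. At 1.5-fold the counts were 30, 60, 37, 36, 38 and 19. Shares of all named genes are not given at 1.5-fold or under level-dependent centring. The counts under either setting therefore cannot be read as an excess of members. Between GT/M6 and GT/M1 the median was 0.068 after quantile normalization and 0.060 after level-dependent centring. Between siEp300 and siCtrl it was 0.34 and 0.33. GT/M2TAD gave 0.059 against GT/M1, -0.025 against GT/M6 and -0.074 against the mean of the 3 native isoforms, and siEp300 gave -0.020 against GT/M2TAD and -0.34 against GT/M2. The cause of these shifts was not tested. Among the isoforms, Cox6b2, Cox7a2, Cox8a and Cox8b crossed the 2-fold level in 0 of 18 alternative values, Cox6a1 in 2, Cox6a2 in 3, Cox6b1 in 5 and Cox7a1 in 6. Members near background limit what can be read: 20 of 93 lay below it on every array.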
